A study of Mus musculus with 4 samples.

Results

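The tissue kallikreins of the Klk1 cluster are a group of mouse serine protease genes that lie next to each other on chromosome 7. The 10 genes described here are Klk1, Klk1b5, Klk1b8, Klk1b11, Klk1b16, Klk1b21, Klk1b22, Klk1b24, Klk1b26 and Klk1b27, taken by their symbols from a table of 28595 genes. Of these, 9 had a row in the table, 6 passed the expression filter and were tested, and Klk1b11 is not analysed here. The genes were chosen by their counts in knockout and wild-type libraries, that is with the genotype differences in view. Those differences are therefore given as descriptions, with no p-value.

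RNA was counted in 10 µm sections of mouse testis by photo-isolation chemistry, in which ultraviolet light unblocks the primers so that only RNA copied inside the lit area enters the library. Light was given either to the entire section or only to Leydig cells, the testosterone-producing cells between the seminiferous tubules. The mice were wild type, titled young in the labels, or H3t KO, which lack a testis-specific variant of histone H3 and in which sperm formation is disrupted. No age is given for the H3t KO mice. Each of the 4 groups had 3 libraries made as 1 pool, so pool and group cannot be told apart. Nothing states whether these 3 come from different mice, so p-values reflect the spread among libraries alone, and that spread may be technical.

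Tissue kallikreins are secreted trypsin-like proteases. Klk1 encodes the enzyme that frees kinins, small peptides that dilate vessels, from kininogen, and the Klk1b genes are rodent duplicates of it that cut growth factor precursors, hormone precursors and matrix proteins. Many are known from the submandibular gland, where androgen raises them, and the products of Klk1b21, Klk1b24 and Klk1b27 are known as kallikreins of testicular Leydig cells.

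The 10 genes are copies of one another, and the regions around their annotated start sites show it. The stretches below come from the RefSeq promoter table (build GRCm38.p6, plus strand), which held all 10 members. They run 5′ to 3′ from 60 bases before to 20 bases after the run TTTAAA, which is in capitals. The first 3 belong to the members with the most counts in knockouts and the last 2 to the members that were lower in knockouts.
Klk1b21: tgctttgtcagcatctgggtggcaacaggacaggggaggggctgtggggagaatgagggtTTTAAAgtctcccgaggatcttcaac
Klk1b24: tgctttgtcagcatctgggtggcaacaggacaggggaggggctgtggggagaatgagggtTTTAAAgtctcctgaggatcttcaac
Klk1b27: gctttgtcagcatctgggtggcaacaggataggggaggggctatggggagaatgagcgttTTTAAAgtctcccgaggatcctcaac
Klk1b8: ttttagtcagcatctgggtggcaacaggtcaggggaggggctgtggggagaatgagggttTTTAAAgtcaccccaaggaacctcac
Klk1b26: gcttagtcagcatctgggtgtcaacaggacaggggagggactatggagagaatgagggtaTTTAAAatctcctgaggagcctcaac

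These stretches lie at chr7:44102236-44102321 for Klk1b21, chr7:44188145-44188230 for Klk1b24 and chr7:44052213-44052298 for Klk1b27. Those of Klk1b8 and Klk1b26 lie at chr7:43950562-43950647 and chr7:44012592-44012677. Most of each stretch lies before the RefSeq start site, and those of Klk1b21 and Klk1b27 run past it. The Klk1b21 and Klk1b24 stretches have the same base at 85 of 86 positions, and they were the closest of the 5. Once aligned with gaps, the 5 stretches were 82.8% (Klk1b8 and Klk1b26) to 98.8% identical in pairs. TTTAAA is present in the windows of 9 of the 10 members, all but Klk1, against 13.2% of 32851 RefSeq windows of the same length (250 bases before to 50 after the start); it was chosen after the windows were read, and the members share it through their common origin. The half-site AAGGTCA of steroidogenic factor 1, a Leydig cell regulator, was found on either strand in Klk1b21 and Klk1 (4.72% of all windows). The androgen receptor half-site TGTTCT was found in Klk1b24 (19% of all windows), and TATAAA (13.6%) and a paired androgen response element (half-sites GNACA and TGTNC set 3 bases apart, 0.475%) in no member. A match says only that the letters are present.

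Likeness between the copies also bears on the counts. The coding sequences of the 45 member pairs were 81.4% to 95.1% identical, and the last 300 bases of their transcripts, from which these 3′ counts come, were 74.7% to 94.7% identical. The highest end identity was that of Klk1b21 and Klk1b24. Of all 50-base words in the last 300 bases, 34.3% in Klk1b21, 27.5% in Klk1b24, 25.1% in Klk1b22 and 5.58% in Klk1b27 also occur in another kallikrein gene. That share was 7.57% in Klk1b26, 9.56% in Klk1 and 0% in Klk1b8 and Klk1b16. For 30-base words it was 72.7% in Klk1b21, 55% in Klk1b24, 51.3% in Klk1b22 and 38.4% in Klk1b27. It was then 45.4% in Klk1, 26.6% in Klk1b26, 10.3% in Klk1b8 and 5.17% in Klk1b16. For 75-base words it was 10.6% in Klk1b21 and Klk1b24 and 0% in these other members. The sources used here do not state how reads matching several genes were counted, so the split between members is uncertain. This holds most for Klk1b21, Klk1b24 and Klk1b22, while their sum depends less on it.

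Entire sections gave 247539 to 566527 counts per library and Leydig-targeted libraries 5947 to 54882, with wild-type Leydig replicate 3 the shallowest. H3f4, the gene of the deleted histone, was seen once, in a wild-type entire section, and had 0 counts in the other 11 libraries, too few to check a label. All 8 Leydig markers in the table were detected in every group and took a mean of 0.335% of counts in wild-type entire sections, 1.93% in knockout entire sections, 1.04% in wild-type Leydig libraries and 3.57% in knockout Leydig libraries. The 10 spermatocyte and spermatid markers took 4.28%, 0.0456%, 2.15% and 0.00461% in the same order, so wild-type Leydig libraries still held much germ-cell RNA. Sertoli markers took 0.405%, 1.39%, 0.36% and 0.725%. Peritubular myoid markers took 0.0826%, 0.203%, 0.0992% and 0.119%. Macrophage markers took 0.0255%, 0.161%, 0.0148% and 0.106%, and endothelial markers 0.00806%, 0.0108%, 0.00491% and 0.0101%. Of tissues known for kallikreins outside the testis, 3 of 6 epididymis markers were in the table and took at most 0.00372% of any library. For the submandibular gland 3 of 6 markers were in the table and took at most 0.058% of any library, nearly all of it Amy1, with Prol1 and Bpifa2 at 2 counts or fewer per library. Fewer cells of a type and less RNA per cell cannot be told apart in such sections.

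Together the members were several times higher in knockouts. Library-scaled counts (CPM, counts in each 1000000 of the library), summed over the members, were 291, 528 and 396 in wild-type entire sections and 1710, 2600 and 2260 in knockout entire sections. In Leydig libraries the sums were 729, 708 and 504 CPM in wild type and 3170, 6650 and 2830 CPM in knockouts. All knockout libraries were above all wild-type libraries, while wild-type Leydig replicate 3, at 504 CPM, lay below wild-type entire section replicate 2. On the log2 scale the knockout mean was higher by 2.43 in entire sections and by 2.7 in Leydig libraries. The Leydig libraries were higher than entire sections by 0.95 in knockouts and by 0.68 in wild type, the last of which was -0.07 with TMM scaling (a trimmed mean of library ratios). The TMM factors ran from 0.5666 in wild-type entire section replicate 2 to 2.283 in wild-type Leydig replicate 3, the shallowest library. The genotype difference in entire sections was also smaller with TMM scaling. Fold values below use library totals, as these sums do, while the edgeR fits use TMM.

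**Figure D1:**
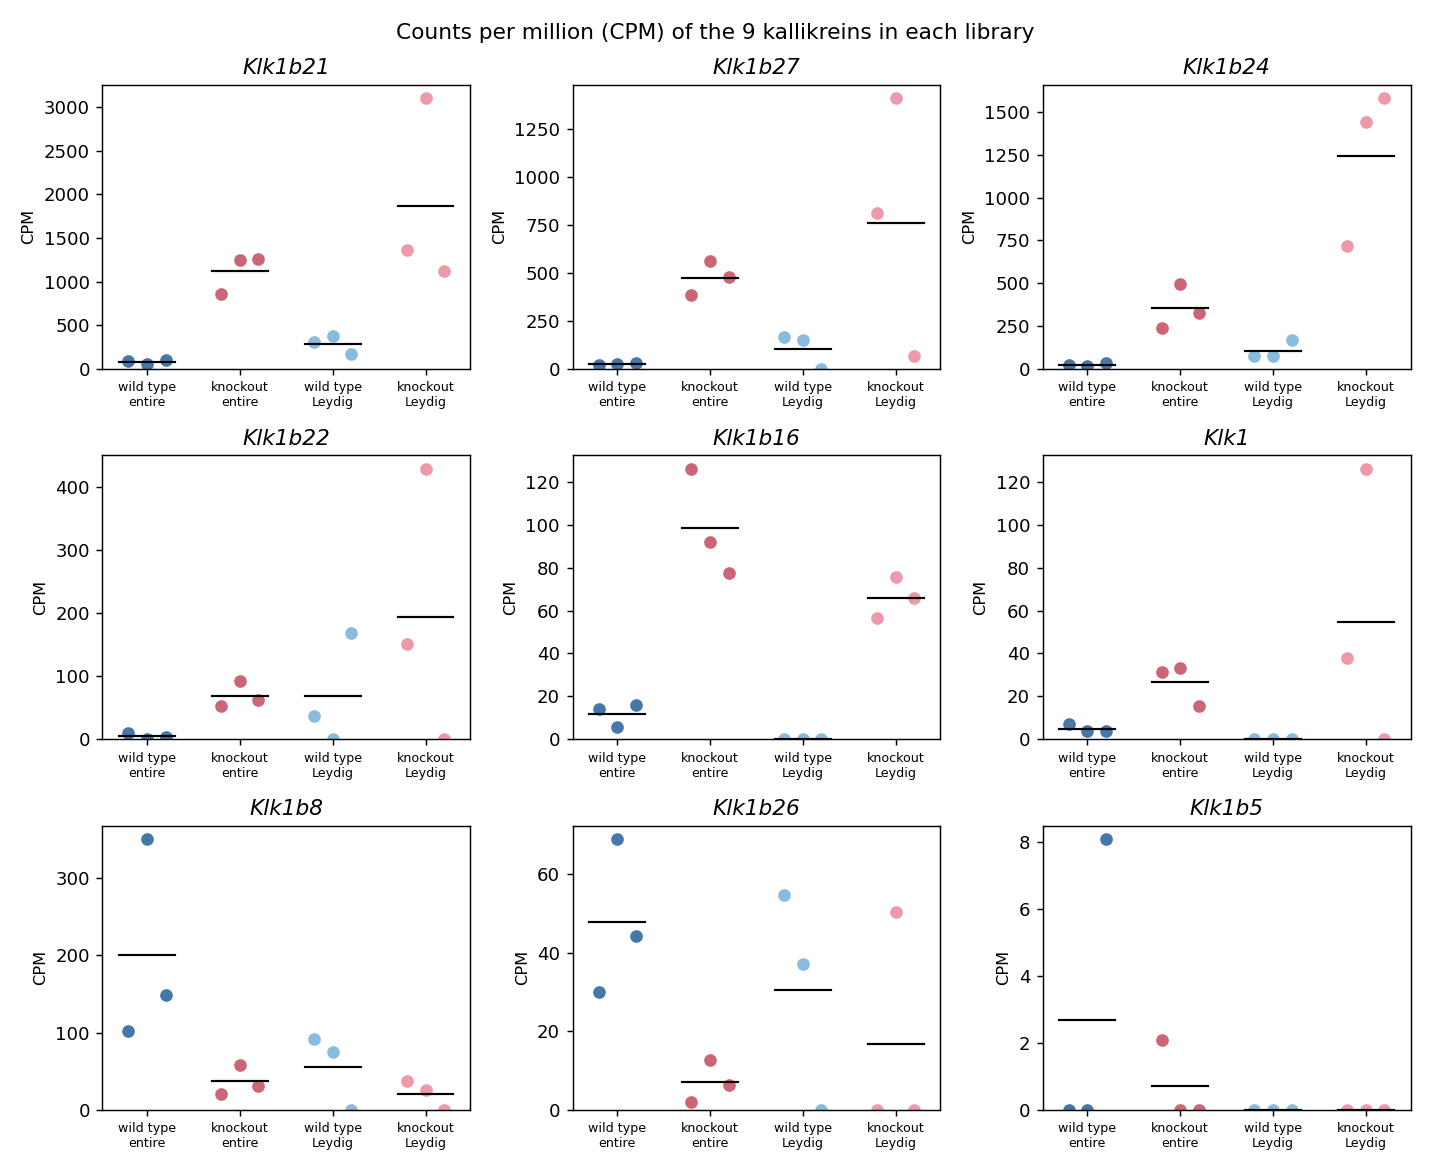
CPM (linear axes from 0) of each of the 9 members in the 12 libraries, by group; points are libraries and lines group means of 3. Klk1b21, Klk1b27, Klk1b24, Klk1b22, Klk1b16 and Klk1 are higher in knockout than in wild-type entire sections, and Klk1b8 and Klk1b26 are lower.

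Klk1b21 was the member with the most counts, and its product is known to cut fibronectin and a binding protein of insulin-like growth factor. It is annotated at chr7:44102328-44106583 on the plus strand, with 5 exons. It had 88.3, 55.5 and 105 CPM in wild-type entire sections and 853, 1250 and 1260 CPM in knockout entire sections. Its summed CPM was 13.9-fold higher in knockouts (95% counting interval 11.4 to 17.2), with no overlap between libraries. In Leydig libraries it had 310, 372 and 168 CPM in wild type and 1360, 3100 and 1120 CPM in knockouts, again without overlap, and was 6.15-fold higher (4.14 to 9.48). Counting intervals and floors here cover counting error only.

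Klk1b27, at chr7:44052290-44056712, showed the widest gap in entire sections. It had 17.7, 26.8 and 28.3 CPM in wild-type and 385, 561 and 479 CPM in knockout entire sections, 20.2-fold higher (14.1 to 30). In Leydig libraries it had 164, 149 and 0 CPM in wild type and 811, 1410 and 65.8 CPM in knockouts, 6.25-fold higher (3.49 to 12.1). These overlap, because knockout replicate 3, with 1 count of Klk1b27, was below wild-type replicates 1 and 2.

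Klk1b24, at chr7:44188236-44192455, had 21.2, 17.2 and 36.4 CPM in wild-type and 240, 497 and 326 CPM in knockout entire sections, 15.5-fold higher (10.7 to 23.3). In Leydig libraries it had 72.9, 74.5 and 168 CPM in wild type and 717, 1440 and 1580 CPM in knockouts, 13.8-fold higher (6.5 to 35.1). Neither pair of groups overlapped. The wild-type Leydig values rest on 4, 2 and 1 counts.

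The next 3 members were expressed at lower levels and moved the same way in entire sections. Klk1b22, whose product is known for cutting the nerve growth factor precursor and binding epidermal growth factor, lies at chr7:44112673-44116922. It had 10.6, 0 and 4.04 CPM in wild-type and 52.5, 91.8 and 62.2 CPM in knockout entire sections, 13-fold higher (6.03 to 33.4), with no overlap. Its Leydig libraries overlapped, at 36.4, 0 and 168 CPM in wild type (from 2, 0 and 1 counts) and 151, 428 and 0 CPM in knockouts.

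Klk1b16 encodes gamma-renin, a kallikrein known from the submandibular gland, and lies at chr7:44136767-44141610. It had 14.1, 5.74 and 16.2 CPM in wild-type and 126, 91.8 and 77.7 CPM in knockout entire sections, 9.06-fold higher (5.28 to 16.7), with no overlap. No wild-type Leydig library had a count of it, and the knockout Leydig libraries had 3, 3 and 1 counts, at least 1.9-fold higher, taking 3 counts in the wild-type group as the floor. Klk1, the kinin-freeing enzyme at chr7:44225360-44229618, had 7.06, 3.83 and 4.04 CPM in wild-type and 31.5, 33.1 and 15.5 CPM in knockout entire sections. That was 5.3-fold higher (2.3 to 14.2) on 33 against 7 counts, and Klk1 was under the expression filter. In Leydig libraries wild type gave no count and knockouts gave 2, 5 and 0, again at least 1.9-fold higher by the same floor.

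Klk1b8 and Klk1b26 went the other way. Klk1b8, at chr7:43950664-43954941, had 102, 350 and 149 CPM in wild-type and 21, 58.6 and 31.1 CPM in knockout entire sections, 5.75-fold lower in knockouts (4.16 to 8.13). The libraries did not overlap, and wild-type replicate 2 stood highest. In Leydig libraries it had 91.1, 74.5 and 0 CPM in wild type and 37.7, 25.2 and 0 CPM in knockouts, from at most 5 counts a library, and these overlapped.

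Klk1b26, known as a prorenin-converting enzyme, lies at chr7:44012168-44016968 and was under the expression filter. It had 30, 68.9 and 44.4 CPM in wild-type and 2.1, 12.7 and 6.22 CPM in knockout entire sections, 7.12-fold lower in knockouts (3.4 to 17.2), with no overlap. Leydig libraries held 4 counts of it in wild type and 2 in knockouts. Klk1b5 was close to the floor everywhere, with 2 counts in wild-type entire sections, 1 in knockout entire sections and 0 in all Leydig libraries.

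In the fit of all 12 libraries with edgeR's quasi-likelihood test and Benjamini-Hochberg adjustment, 5 of the 6 tested members were called higher and 1 lower in knockout entire sections at an adjusted p under 0.05. Of all 5182 genes tested, 22.6% were called higher and 39.1% lower in that comparison. Log2 differences were 3.69 ± 0.53 (SE) for Klk1b27, 3.30 ± 0.53 for Klk1b24, 3.20 ± 0.51 for Klk1b21, 3.07 ± 0.64 for Klk1b22, 2.52 ± 0.55 for Klk1b16 and -3.14 ± 0.47 for Klk1b8. The Klk1b8 value was -2.16 without wild-type entire section replicate 2, and that of Klk1b22 was 4.89 without wild-type entire section replicate 1. Klk1b16 passed the filter only through knockout libraries and Klk1b8 only through wild-type libraries. Klk1b22 reached the filter's level in 1 wild-type and 3 knockout libraries and Klk1b27 in 2 and 5. The filter needs 3 libraries, so these 2 members were also tested only because of knockouts. The median over the 6 tested members was 3.14, beside -0.35 over all genes tested. In Leydig libraries 4 members were called higher and 0 lower, beside 7.55% and 20.9% of all genes. These were Klk1b24 (3.64 ± 0.70), Klk1b22 (2.48 ± 0.92), Klk1b21 (2.42 ± 0.57) and Klk1b27 (2.36 ± 0.64), while Klk1b8 differed by -1.69 ± 1.16 without a call. The Klk1b22 call was lost with DESeq2, Leydig marker scaling or totals of the kept genes, and without wild-type entire section replicate 1, any 1 wild-type Leydig library or knockout Leydig replicate 2 (1.54). The median over the 6 was 2.45, or 2.39 with Klk1b16 at its bound, beside -0.28 over all genes. The contrast was in view when the genes were chosen, so nothing is read from these counts.

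Members thus differed in direction along the cluster, an order that was noticed after the values were seen. From the start of the pseudogene Klk1b7-ps to the end of Klk1 the cluster spans 287 kb. The members lower in knockouts, Klk1b8 and Klk1b26, start at 8 and 69.5 kb. The 6 members that were higher, Klk1b27, Klk1b21, Klk1b22, Klk1b16, Klk1b24 and Klk1, start at 110, 160, 170, 194, 246 and 283 kb.

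The neighbours of the lower members were lower too. Klk1b7-ps, at 0 kb, had 16, 34 and 13 counts across the wild-type entire sections but 0, 0 and 1 across those of knockouts, a knockout to wild-type ratio of 0.0178 (0.000445 to 0.103). Klk1b9, at 33.4 kb and known as an epidermal growth factor-binding protein, had 13, 22 and 8 counts against 2, 0 and 0, a ratio of 0.0523 (0.00613 to 0.201). Klk2-ps, a pseudogene upstream of the cluster, had 14 counts in wild-type and 0 in knockout entire sections, at least 4.15-fold lower with the floor of 3 counts for the group.

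The order was not complete. Klk1b3, which lies among the higher members at 256 kb and encodes the gamma subunit of nerve growth factor, had 6 counts in wild-type and 1 in knockout entire sections, a ratio of 0.187 (0.00407 to 1.54), and Klk1b4 at 265 kb had 2 and 0. Klk1b1 at 24.1 kb had 0 counts in wild-type and 2 in knockout entire sections, and Klk1b10-ps had 1 count in all. Outside the cluster Klk13 had 8 counts, all in wild-type Leydig replicate 1. Klk12 and Klk14 had 1 count each, and Klk4, Klk7 and Klk8 had 0. None of the 13 other kallikrein genes in the table passed the expression filter.

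**Figure D2:**
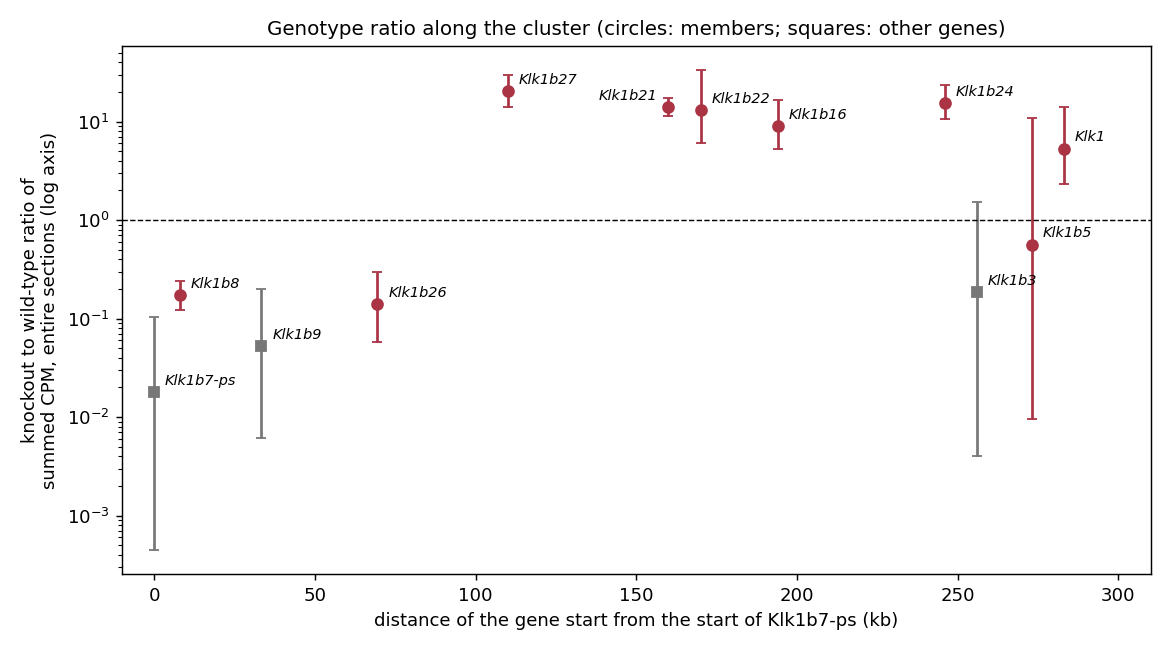
Knockout to wild-type ratio of summed CPM in entire sections (log axis, bars: 95% counting intervals) against the distance of each gene's start from that of Klk1b7-ps in kb; circles are members, squares other kallikrein genes, and the dashed line marks equal levels. Klk1b7-ps, Klk1b8, Klk1b9 and Klk1b26 lie below the line at 0 to 69.5 kb and 6 members above it at 110 to 283 kb, with Klk1b3 and Klk1b5, whose intervals cross the line, among them.

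The make-up of the kallikrein counts changed with both genotype and region. Since 3′ counts come from transcript ends, these shares were not divided by gene length. Klk1b21, Klk1b24 and Klk1b27 together made up 43.6%, 18.8% and 42.9% of the members' counts in wild-type entire sections and 86.3%, 88.9% and 91.5% in knockout entire sections. In wild-type Leydig libraries they made up 75%, 84.2% and 66.7%, the last of only 3 counts (exact interval 9.43% to 99.2%), and in knockout Leydig libraries 91.1%, 89.4% and 97.7%. The wild-type entire sections therefore stood below the other 9 libraries.

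Klk1b8 with Klk1b26 filled most of the rest in wild-type entire sections, at 45.5%, 79.3% and 49% of the members' counts. They made up 1.35%, 2.75% and 1.65% in knockout entire sections. In Leydig libraries they made up 20%, 15.8% and 0% in wild type, where 0 of 3 counts allows up to 70.8% (exact interval), and 1.19%, 1.14% and 0% in knockouts, where 0 of 43 allows up to 8.22%. Within the leading 3, Klk1b21 kept 51.3% ± 4 (SD, n = 3) of the members' counts in knockout entire sections and 43% ± 3.53 in knockout Leydig libraries. Klk1b24 had 15.9% ± 2.85 and 33.3% ± 19.5 in those groups, the last drawn up by 55.8% in replicate 3.

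**Figure D3:**
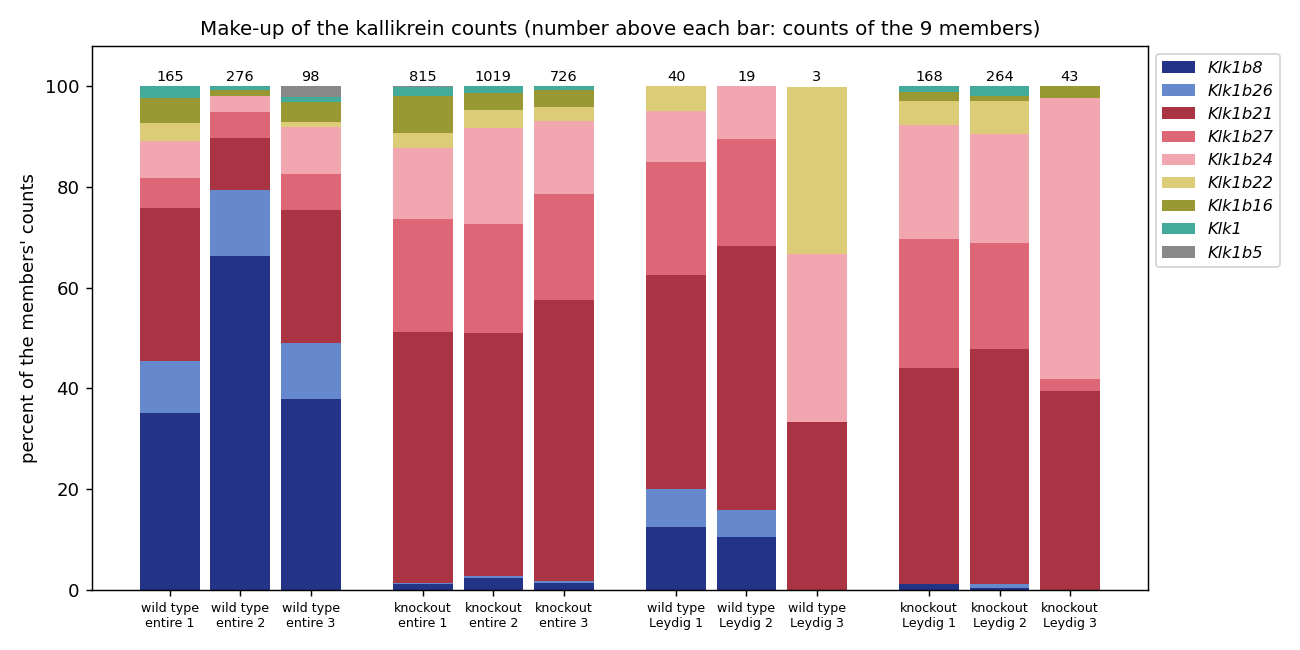
Share of each member in the counts of all members, in percent, for each of the 12 libraries, with the number of counts above each bar. Klk1b8 and Klk1b26 (blues) take 45.5% to 79.3% in wild-type entire sections and at most 2.75% in knockout libraries, where Klk1b21, Klk1b27 and Klk1b24 (reds) take 86.3% or more.

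Leydig-targeted libraries were then compared with entire sections within each genotype. The genes were proposed with results of these data known, so the adjusted p-values that follow are no independent support. In wild type, 1 of 6 tested members was called lower in Leydig libraries and 0 higher, beside 12.4% and 3.22% of all genes. That member was Klk1b8, with a log2 difference of -2.03 ± 0.68, lower in 3 of 3 Leydig libraries than in any entire section. It reached the filter's level in 3 wild-type entire sections and 2 wild-type Leydig libraries, and in 0 knockout libraries. It was thus tested only because of the group where it is high, so no p is given and nothing is read from the call. The call was lost in 11 of 20 alternatives. These were library size alone, DESeq2, the replicate block, the 6 libraries alone, totals of the kept genes, and fits without wild-type entire section replicate 1 or 2 (-1.08 without replicate 2), any 1 wild-type Leydig library or knockout Leydig replicate 3. Klk1b27 differed by 1.98 ± 0.75 (edgeR adjusted p = 0.0519) and Klk1b21 by 1.35 ± 0.60 (adjusted p = 0.105), both toward higher in Leydig libraries. With wild-type Leydig replicate 3 left out, Klk1b27 (2.58, edgeR adjusted p = 0.0134) and Klk1b21 (1.90, adjusted p = 0.0171) passed the threshold and Klk1b8 did not (-1.42). The median over the 6 was 1.27, beside -0.67 over all genes.

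In knockouts, 1 of 6 members was called higher in Leydig libraries and 0 lower, beside 1.91% and 3.53% of all genes. Klk1b24 differed by 1.54 ± 0.47 (edgeR adjusted p = 0.0268) and was higher in 3 of 3 Leydig libraries than in any entire section. Its call was lost in 10 of 20 alternatives. These were Leydig marker scaling (0.82, edgeR adjusted p = 0.327), no filter (1.05, adjusted p = 0.384), the replicate block (adjusted p = 0.0613), totals of the kept genes (adjusted p = 0.0803) and fits without any 1 of 6 libraries, namely wild-type entire section replicates 1 and 3, knockout entire section replicates 1 and 3 and knockout Leydig replicates 2 and 3 (edgeR adjusted p 0.0609 to 0.23). Klk1b22 differed by 1.53 ± 0.55 without a call. It reached the filter's level in 2 knockout Leydig libraries, 1 knockout entire section and 1 wild-type Leydig library. It was thus tested only because of the group where it is high, so no p is given. Klk1b27 (0.65 ± 0.46), Klk1b21 (0.56 ± 0.46), Klk1b8 (-0.58 ± 1.01) and Klk1b16 (-0.80 ± 0.71) did not pass. The median was 0.61, beside -0.42 over all genes.

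The test of whether the genotype difference itself differed between Leydig libraries and entire sections called 0 of 6 members, beside 0.193% higher and 0.135% lower of all genes. DESeq2 also called 0, and 0 had an unadjusted p under 0.05. The difference of differences was -1.33 ± 0.86 for Klk1b27, with the lowest unadjusted p of the 6 (0.12, edgeR adjusted p = 0.634), -0.78 ± 0.75 for Klk1b21 and 0.34 ± 1 for Klk1b24. A p that misses the threshold does not show that the differences were alike in both regions.

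Leydig markers moved with the leading members, so the counts were also set against them. Per 100 counts of the 8 Leydig markers, Klk1b21, Klk1b24 and Klk1b27 together had 3.05, 5.08 and 4.32 counts in wild-type entire sections and 6.55, 4.11 and 4.08 in wild-type Leydig libraries. Knockout entire sections had 6.89, 14.5 and 10 and knockout Leydig libraries 8.46, 14.8 and 8.4. The 6 wild-type libraries, at 3.05 to 6.55, were all below the 6 knockout libraries, at 6.89 to 14.8. The nearest libraries, wild-type Leydig replicate 1 and knockout entire section replicate 1, were close. This separation holds for the marker sum, whose largest part in each library was Cyp17a1, and not for every marker. Wild-type entire sections held 72, 52 and 42 counts of the 3 members, all above Hsd3b6 at 71, 39 and 27. Knockout entire sections held 703, 906 and 664, beside 845, 761 and 421 of Hsd3b6. Set against Hsd3b6 alone, the entire sections of the genotypes thus overlapped. Against Hsd3b1, Hsd17b3, Cyp11a1 and Lhcgr, each taken alone, the entire sections overlapped too. Hsd3b1 stood at 336, 131 and 75 (wild type) against 2351, 1773 and 1129 (knockout). Hsd17b3, Cyp11a1 and Lhcgr were sparse, at 9 counts or fewer per wild-type entire section, and Lhcgr had 0 in replicate 3. The genotypes stayed apart in entire sections against Cyp17a1, Star or Nr5a1 alone. Ratios to single markers in Leydig libraries were not tested. Summed over all 9 members, the genotypes overlapped per 100 counts of the marker sum as well. Wild-type entire sections then had 6.99, 27 and 10.1 counts and knockout entire sections 7.99, 16.3 and 11. Leydig libraries had 8.73, 4.88 and 6.12 in wild type and 9.29, 16.6 and 8.6 in knockouts.

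When edgeR scaled libraries to their Leydig marker counts, the knockout difference in entire sections was 1.66 for Klk1b27, 1.37 for Klk1b24, 1.27 for Klk1b22, 1.24 for Klk1b21, 0.57 for Klk1b16 and -5.28 for Klk1b8. The values of the first 5 are smaller than with TMM scaling. In Leydig libraries under that scaling Klk1b24 differed by 2.07, Klk1b22 by 0.77, Klk1b21 by 0.76, Klk1b27 by 0.67 and Klk1b8 by -3.25. The median over all genes was -2.37 and -1.88 in these comparisons. How far Leydig content accounts for the differences was not tested.

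**Figure D4:**
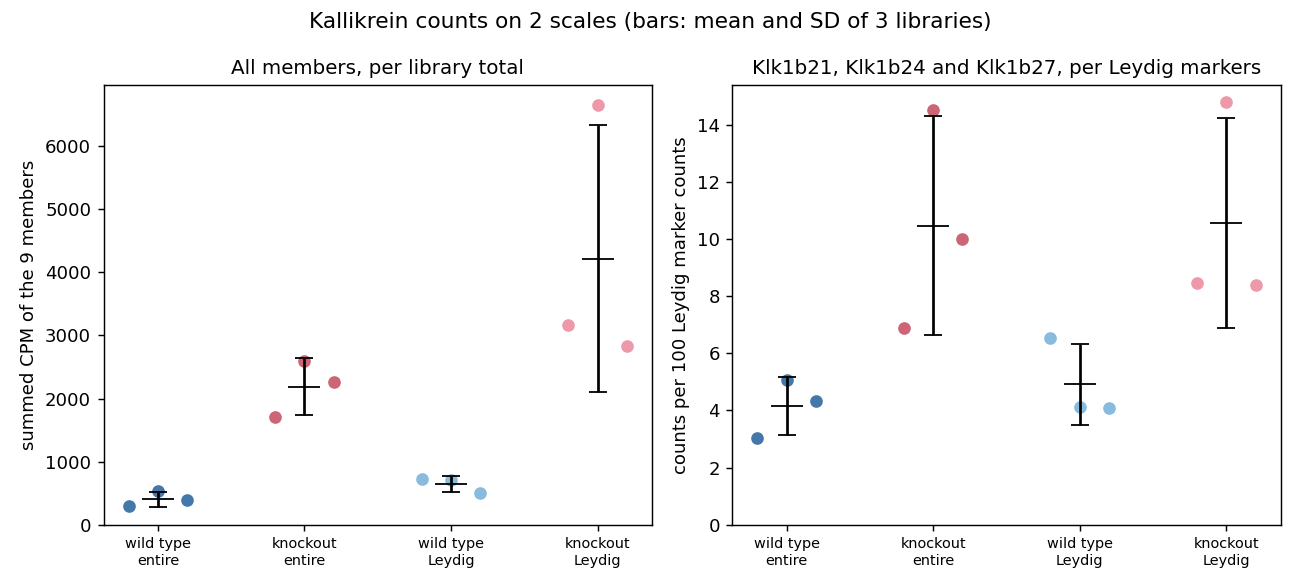
Left, CPM summed over the 9 members in each library; right, counts of Klk1b21, Klk1b24 and Klk1b27 per 100 Leydig marker counts; points are libraries and black bars the mean and SD of 3. Knockouts are above wild type in both panels. On the left wild type has 291 to 729 CPM and knockouts 1710 to 6650 CPM. On the right these are 3.05 to 6.55 and 6.89 to 14.8, a separation that holds for the marker sum and not for every marker. The panels hold different members, so the sizes of their gaps cannot be compared.

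Germ-cell markers moved with Klk1b8 and Klk1b26 between genotypes in entire sections, but not among the knockout entire sections. In wild-type entire section replicate 2, where Klk1b8 was highest, spermatocyte and spermatid markers were also highest (5.41% of counts, against 2.99% and 4.46%) and Leydig markers lowest (0.196%, against 0.417% and 0.393%). Per 100 of those germ-cell marker counts, Klk1b8 and Klk1b26 had 0.443, 0.775 and 0.435 counts in wild-type entire sections and 0.499, 0.566 and 0 in wild-type Leydig libraries. In knockout entire sections, where the germ-cell markers fell to 170, 50 and 284 counts, the ratio was 6.47, 56 and 4.23. Klk1b8 and Klk1b26 were highest there in replicate 2 (58.6 and 12.7 CPM), where the germ-cell markers were lowest (0.0127% of counts). Knockout Leydig libraries had 6, 1 and 0 germ-cell marker counts. The ratio was 33.3 and 300 in replicates 1 and 2 and could not be formed in replicate 3. Whether germ-cell content accounts for the Klk1b8 values was not tested.

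Across the 12 libraries, the tested genes outside the kallikreins whose log2 CPM was most like that of the summed members were Glul (glutamine synthetase, r = 0.943), Aldoa (a glycolytic enzyme, r = 0.937), Tpt1 (0.928), Chchd10 (a mitochondrial protein, 0.918) and Mavs (an antiviral signalling adaptor, 0.917). These Pearson correlations are descriptions over libraries of 4 groups that share depth and genotype. With either of 2 other scalings, 2 of these 5 genes were again among the nearest 5. Glul had 351, 427 and 380 CPM in wild-type and 1320, 1590 and 1320 CPM in knockout entire sections. Of the members, Klk1b21 followed the sum most closely (r = 0.938), but it is itself a large part of that sum. Klk1b8 did not follow the sum (-0.207).

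Genes that act with kallikreins were taken from lists of kinin pathway, serine protease inhibitor and substrate genes. Of 18 inhibitors, 17 were in the table and 6 were tested, and 5 of these were called higher in knockout entire sections, beside 22.6% of all genes, with a median of 2.65 beside -0.35 over all genes. Serpina3n and Serpina3g passed the filter only through knockout libraries. Serpina3c reached the filter's level in 2 wild-type and 6 knockout libraries, and the filter needs 3, so it too was tested only because of knockouts. The genotype differences of these genes are given as values, with no p. Serpina3c, a mouse relative of the serpin that binds tissue kallikrein, had 33.5, 15.3 and 16.2 CPM in wild-type and 357, 316 and 435 CPM in knockout entire sections (log2 difference 3.46 ± 0.53), and the difference was 4.22 without wild-type replicate 1. Serpina3n, an inhibitor raised in inflammation, had 1 count in wild-type and 116 in knockout entire sections, a ratio of 130 (22.9 to 5190), and Serpina3g had 15 and 149, a ratio of 11.2 (6.55 to 20.4). The other 2 inhibitors called higher, Serping1 (2.39 ± 0.48) and Serpina5 (1.85 ± 0.46), were named after their values were seen. In every one of these 5 genes the 3 knockout libraries were above the 3 wild-type libraries. These genes were picked by their calls, and the share of all genes so separated was not counted. Nothing is therefore read from this separation.

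In Leydig libraries 4 of the 6 inhibitors were called higher in knockouts, beside 7.55% of all genes, with a median of 2.67, or 2.18 with Serpina3n at its bound, beside -0.28 over all genes. Serping1, the inhibitor of plasma kallikrein and complement C1 proteases, had 54.7, 298 and 0 CPM in wild type and 1510, 1410 and 1510 CPM in knockouts (3.27 ± 0.66). That difference was 2.40 without wild-type Leydig replicate 1 and 4.65 without replicate 2. Serpina3c had 200, 186 and 0 CPM against 717, 655 and 1450 CPM (2.07 ± 0.62). Serpina3n had 0 counts in wild type and 18 in knockouts, at least 4.88-fold higher with 3 counts as the floor for that group, and Serpina3g 1 and 31 counts, a ratio of 25.2 (4.2 to 1030). The edgeR call of Serpina3c was lost without knockout Leydig replicate 3 (1.42) and with Leydig marker scaling (0.63).

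Serpina3c was also the 1 inhibitor called higher in wild-type Leydig libraries than in entire sections (2.39 ± 0.71, edgeR adjusted p = 0.011), beside 3.22% of all genes. It was at 0 in replicate 3. The edgeR call was lost without Leydig replicate 1 (adjusted p = 0.178), with no filter (1.66, adjusted p = 0.17) and with Leydig marker scaling (1.29, adjusted p = 0.13). No inhibitor was called in the knockout region comparison.

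Of the 17 kinin pathway genes, 15 were in the table and 4 were tested. In knockout entire sections 1 was called higher and 1 lower, beside 22.6% and 39.1% of all genes. Ace, the enzyme that breaks down kinins and has a testis form in germ cells, was lower in knockout entire sections, at 48.3, 48.4 and 90.1 CPM against 217, 277 and 255 CPM in wild type (-2.62 ± 0.47). It was also lower in knockout Leydig libraries (-2.39 ± 0.75). The list was chosen with results of these data known, so no p is given for Ace. Mme, another peptidase that cuts kinins, was higher in knockout entire sections (1.80 ± 0.52). It reached the filter's level in 2 wild-type and 5 knockout libraries, so it was tested only because of knockouts and no p is given. The Mme result and the Ace result in Leydig libraries were named after their values were seen. The kininogen genes were close to 0, with 1 count of Kng1 and 2 of Kng2 in all, and the receptor gene Bdkrb2 had 0 counts. Others under the filter were named after their values were seen. Wild-type entire sections held 35 counts of Cpn1, 19 of Klkb1 and 59 of Thop1, against 1, 1 and 7 in knockouts. Prep went the other way, with 11 and 46. Prcp had 57 and 36, and its ratio of 0.71 (0.454 to 1.1) was not clear of 1. Cpm, Dpp4 and Xpnpep2 had 5 counts or fewer in each group. No gene of the list was called between regions.

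Of the 10 substrate and cargo genes, all were in the table and 5 were tested, of which 2 were called higher in knockout entire sections, beside 22.6% of all genes. These were Igf1 (1.60 ± 0.49), the growth factor whose binding protein kallikreins cut, and its receptor gene Igf1r (1.94 ± 0.46). Igf1r passed the filter only through knockout libraries, and Igf1 reached the filter's level in 1 wild-type and 3 knockout libraries. Both were thus tested only because of knockouts, so no p is given, and both were named after their values were seen. None was called between genotypes in Leydig libraries. Egfr, the epidermal growth factor receptor, had 75.5, 151 and 132 CPM in knockout Leydig libraries, from 4, 6 and 2 counts, and 12.6, 12.7 and 9.32 CPM in knockout entire sections. It passed the filter only through those knockout Leydig libraries, so the difference between regions is given with no test. The known substrate genes Igfbp3 and Fn1 were under the expression filter, where wild-type entire sections held 0 and 32 counts of them and knockout entire sections 18 and 37.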

How the data were processed

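The members and gene lists were chosen with earlier results of these data known. The deposited values are raw whole-number counts per gene from 3′ ends, not normalized by the authors. The submitters' processing notes list HISAT2, featureCounts, UMI-tools and Trim Galore and the build GRCm38; no versions, strand setting or rule for multiply matching reads are stated. Gene positions and transcript ends came from GENCODE M21 and promoter windows from RefSeq, both of GRCm38. Library totals ran from 5947 to 566527 counts.

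All 12 libraries were fitted with edgeR 4.0.16 (robust quasi-likelihood test, R 4.3.3), with 1 coefficient per group and trimmed mean of M values scaling on full totals. The package's filter at a minimum count of 10 (about 66.1 CPM in 3 libraries) kept 5182 genes, and a call needs a Benjamini-Hochberg adjusted p below 0.05. SE is the log2 difference divided by the root of the test's F value. There were 4 comparisons between groups and 1 interaction test. Ratios use summed counts with exact 95% conditional intervals, and shares have Clopper-Pearson intervals. A floor is 3 counts over the group. Likeness is Pearson's r on log2 CPM with a prior count of 2.

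All 10 members were to be named, with every other kallikrein gene that had a count, up to 4 list genes per comparison by adjusted p, and the 5 genes most like the summed members. Same-numbered libraries of the 2 genotypes deviated together in entire sections (correlations across genes 0.243, 0.132 and 0.194), which by the rule used pairs them, and did not in Leydig libraries (-0.004, 0.008 and -0.006). The main fit leaves this pairing out, and the replicate block among the alternatives includes it. Alternatives were 3 other scalings, DESeq2 1.42.0, no filter, the libraries of a contrast alone, the replicate number as a block and each library left out. Scaling on totals of the kept genes was added after seeing the data.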

Additional observations from a re-analysis of the deposited data

How the results depend on the processing

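The count of members called between genotypes in entire sections stayed at 6 (5 higher, 1 lower) without any 1 of the 12 libraries and was 3 (2 higher, 1 lower) with Leydig marker scaling, 8 (6 higher, 2 lower) with no filter and 7 (5 higher, 2 lower) on the 6 libraries alone; no tested member changed direction in that comparison under any alternative. In Leydig libraries the count was 4, 5 with library size alone, 3 with DESeq2 or totals of the kept genes, 2 (1 higher, 1 lower) with Leydig marker scaling, 2 on the 6 libraries alone, where only 2 members could be tested, and 3 to 4 without any 1 library. For wild-type regions the count was 1, Klk1b8 lower. It was 2 with median-of-ratios size factors (Klk1b8 lower, Klk1b27 higher) or library size alone (Klk1b27 and Klk1b21 higher), 1 on the 6 libraries alone (Klk1b21 higher) or with totals of the kept genes (Klk1b27 higher), 0 with DESeq2 or the replicate block, and 0 to 2 without 1 library, where the 2 were Klk1b27 and Klk1b21, both higher, without wild-type or knockout Leydig replicate 3, and Klk1b27 higher with Klk1b8 lower without knockout Leydig replicate 1 or 2. For knockout regions it was 1 (every call there was higher), 2 with median-of-ratios factors, library size alone or the 6 libraries alone, 0 with Leydig marker scaling, no filter, the replicate block or totals of the kept genes, and 0 to 2 without 1 library. Same-numbered libraries of the 2 regions did not deviate together (correlations from -0.107 to 0.056), so there the block has only a shared number behind it; it changed no genotype count. The interaction count was 0 throughout.

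Over all values of single members and list genes, 709 kept direction and call, 45 lost a call, 18 gained one and 10 changed sign. Those sign changes were all in uncalled values. In knockout regions Klk1b27 was -0.22 and Klk1b21 -0.23 with Leydig marker scaling, and Klk1b21 ranged from -0.02 to 0.76 without 1 library. In the interaction Klk1b24 was -0.02 with library size alone and -0.38 with totals of the kept genes, and ranged from -0.37 to 0.63 without 1 library, as Klk1b22 did from -2.64 to 0.06. The summed CPM difference between genotypes in entire sections was 2.43, 1.79 with TMM and 1.73 with median-of-ratios factors, and that between wild-type regions 0.68, -0.07 and 0.07. The cause of these shifts was not tested. Depth limits the Leydig libraries most, where wild type held 62 member counts in all. The median over all genes in the entire-section genotype comparison ran from -2.37 to 0.22 across scalings, and with library size alone 52.2% of calls were higher, against 36.6% with TMM.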
